A study of Mus musculus with 48 samples.

Results

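MicroRNAs were compared between the whole brains of 17-month-old and 10-month-old wild-type (WT) mice. The comparison used 6 of the 48 arrays of the series, namely the 3 miRNA arrays of WT whole brain at 17 months and the 3 at 10 months. All of these mice were C57BL/6J animals that carried no transgene and received no treatment. Of the 1023 mouse miRNAs that the array measured, 333 were detected on at least 2 arrays of an age, and these were the miRNAs described. The series was built around Tg2576 mice, a transgenic line of amyloid accumulation, and its 24 miRNA arrays also covered Tg2576 whole brain and the cortex of both genotypes, each with 3 arrays at 10 and 17 months. The WT mice were compared here with each other to describe the miRNA levels of the non-transgenic brain at the 2 ages. The labels give each array as one replicate of its group, and do not say whether arrays of whole brain and of cortex with the same number came from the same mouse.

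MicroRNAs are short RNAs that are cut from hairpin precursors and loaded into Argonaute proteins. They pair with messenger RNAs mainly through the seed, the stretch from base 2 to base 8, and lower the stability or the translation of these targets. Some mark a cell type. In brain, miR-124, miR-9 and miR-128 belong to neurons, miR-219 and miR-338 promote the maturation of the myelin-forming oligodendrocytes, and miR-126 is made in endothelium. Others mark tissue at the edge of the dissection or blood, such as the miR-200 and miR-183 families in olfactory tissue, miR-375 in endocrine cells including those of the pituitary, and miR-451 and miR-144 in red blood cells. In whole tissue, fewer cells of a type and less RNA per cell cannot be told apart.

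Mature sequences in the RefSeq table (GRCm38.p6) were found for 11 of the 24 miRNAs that were named for their difference with age. Those below are the ones with a sequence that the account of single miRNAs turns on, with the seed in capitals and the current name where it differs from that on the array.
miR-135a (miR-135a-5p): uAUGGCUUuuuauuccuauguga
miR-30c (miR-30c-5p): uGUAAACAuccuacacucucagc
miR-219-5p (miR-219a-5p): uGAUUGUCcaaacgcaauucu
miR-296-5p: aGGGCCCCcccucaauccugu
miR-690: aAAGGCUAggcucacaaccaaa
miR-3473 (miR-3473a): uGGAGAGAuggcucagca
miR-652* (miR-652-5p): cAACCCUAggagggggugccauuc
No seed was shared among these 7 miRNAs. miR-690 was annotated at chr16:28599940-28599961 on the minus strand, inside the protein-coding gene Fgf12, and miR-652 at chrX:142739020-142739043 on the plus strand, inside Tmem164. miR-135a, miR-30c and miR-219a had 2 hairpins each. The next set is shown because these miRNAs varied widely among mice of one age, and because their shared seeds and neighbouring positions place them in groups.
miR-200a (miR-200a-3p): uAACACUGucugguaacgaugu
miR-141 (miR-141-3p): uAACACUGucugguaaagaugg
miR-200b (miR-200b-3p): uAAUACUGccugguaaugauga
miR-200c (miR-200c-3p): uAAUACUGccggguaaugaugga
miR-429 (miR-429-3p): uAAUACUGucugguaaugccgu
miR-183 (miR-183-5p): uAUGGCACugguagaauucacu
miR-96 (miR-96-5p): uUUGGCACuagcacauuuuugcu
miR-451 (miR-451a): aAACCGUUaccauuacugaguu
miR-144 (miR-144-3p): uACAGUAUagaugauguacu
miR-200a and miR-141 shared the seed AACACUG, and miR-200b, miR-200c and miR-429 shared AAUACUG. The hairpins of miR-200a, miR-200b and miR-429 lay on chromosome 4, where the mature miR-200a and miR-429 started 995 bases apart. The mature miR-200c and miR-141 started 407 bases apart on chromosome 6, miR-183 and miR-96 started 205 bases apart on the same chromosome, and miR-451 and miR-144 started 139 bases apart on chromosome 11.

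The arrays of 17 months differed more in brightness among themselves than those of 10 months. The 75th percentile of the signal was 671 to 745 at 10 months and 582 to 969 at 17 months (two-sided exact permutation p = 0.4, where 0.1 is the smallest p that 3 against 3 arrays allow). The number of mouse miRNAs detected was 293 to 311 at 10 months and 275 to 337 at 17 months (two-sided exact permutation p = 0.6). Replicate 2 of 17 months was the dimmest of the 6 arrays, with 275 miRNAs detected, and the other arrays of 17 months were the brightest. All 3 arrays of 10 months lay on slide 2, replicates 1 and 3 of 17 months on slide 3, and replicate 2 of 17 months on slide 4, so that age and slide cannot be told apart within these 6 arrays. Each slide was scanned together. Levels below are log2 values after each array was divided by its own 75th percentile, so that 0 is the level of that percentile, and the floor of the measurement lay at -5.67. Of the 333 miRNAs, 67 were at the floor on all 6 arrays and 266 were tested. As a check of the tissue label, mRNA arrays of both ages were read, and all 6 neuron, 5 astrocyte, 6 oligodendrocyte and 6 microglia marker genes were well above background on all 3 arrays of each age.

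A single miRNA, miR-720, differed with age past the adjusted threshold in WT whole brain (1 of 266 tested, 0.376%, limma with Benjamini-Hochberg adjustment, adjusted p under 0.05), and it was lower at 17 months. None was higher. Without adjustment, 33 of 266 (12.4%) had p under 0.05, of which 13 (4.89%) were higher and 20 (7.52%) lower. That split depended on the scaling of the arrays, with 34 higher and 15 lower when the percentile was taken over probes well above background on these 6 arrays, 27 and 10 after quantile normalization, 2 and 15 when it was taken over all probes, and 17 and 16 with the median in place of the percentile. The values of the 2 ages did not overlap for 41 miRNAs (15.4%), 20 of them higher (7.52%) and 21 lower (7.89%) at 17 months. The median difference over the 266 miRNAs was 0.01, and the median half-width of its 95% interval was 0.22, so that 206 of the 266 intervals lay wholly within 0.5 of 0 on the log2 scale. The count of calls rested on single arrays. It was 0 without replicate 2 or 3 of 10 months or replicate 1 of 17 months, 4 without replicate 3 of 17 months, and 19 without replicate 2 of 17 months, the array on slide 4.

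**Figure D1:**
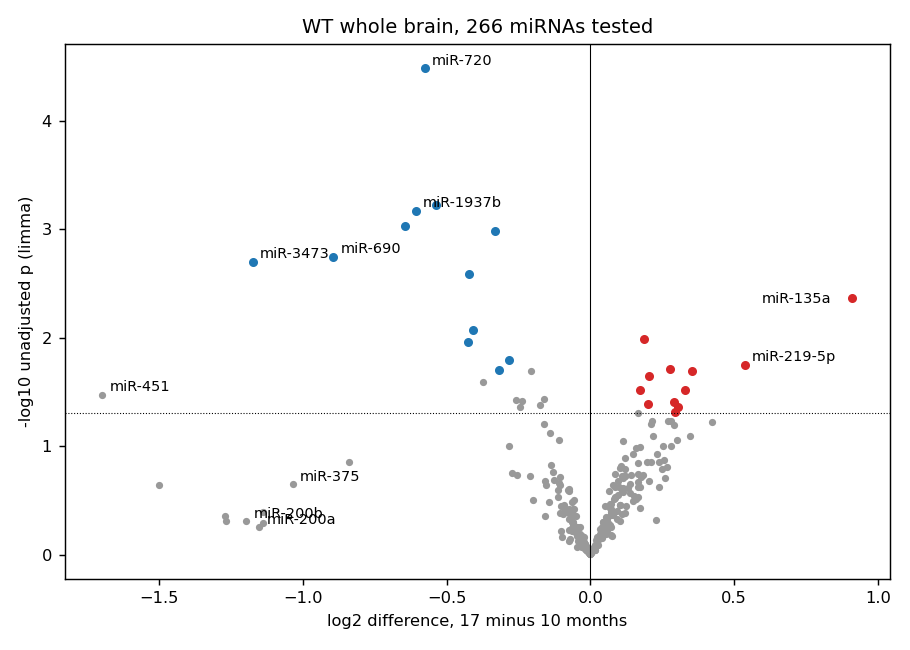
Log2 difference between 17 and 10 months in WT whole brain (x axis) against -log10 of the unadjusted limma p (y axis) for the 266 miRNAs tested. Red and blue points are the 12 named miRNAs with higher and the 12 with lower values, and the dotted line marks the unadjusted threshold. miR-720 had the smallest p, while miR-451, miR-375 and the miR-200 family had differences beyond 1 with large spread.

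miR-720, an entry that is regarded as a fragment of a transfer RNA, had levels of 3.95, 4.02 and 4.02 on the 3 arrays of 10 months and 3.42, 3.41 and 3.43 on those of 17 months. The arrays of each age lay within 0.1 of each other and the ages did not overlap. The difference was -0.58 ± 0.05 (SE, n = 3 per age), a 1.49-fold lower level, with an adjusted p of 0.00873 (limma). It lost the call without replicate 2 or 3 of 10 months or replicate 1 of 17 months, where the difference was -0.57, -0.57 and -0.58 and the adjusted p 0.116, 0.114 and 0.0701 (limma).

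The level of miR-720 also differed between slides among arrays of one age outside this comparison. Among the Tg2576 whole brains of 10 months, the array on slide 2 had 4.13 and the arrays on slide 3 had 3.58 and 3.57. These arrays also differed in brightness, with a 75th percentile of 494 on slide 2 and of 1532 and 1604 on slide 3. The parts of slide and of brightness were not tested. In WT cortex of 10 months, the arrays on slide 1 had 4.16 and 3.95 and that on slide 4 had 3.40. Both contrasts rested on a single array, on slide 2 in Tg2576 whole brain and on slide 4 in WT cortex. Cortex arrays of 17 months on slide 2 had 3.85 in WT and 3.75, 3.77 and 3.68 in Tg2576. Tg2576 whole brains of 17 months, all on slide 3, had 3.51, 3.30 and 3.42. When slide was a term in a fit of the 12 whole brain arrays, the age difference of miR-720 in WT was -0.02 ± 0.10 (SE), and in a fit of all 24 arrays it was -0.04 ± 0.09 (SE). Neither fit called any miRNA. In the fit of 12 arrays, slides 2 and 3 were compared only through the Tg2576 arrays of 10 months given above. The slide 4 array of WT whole brain had no weight in it.

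**Figure D2:**
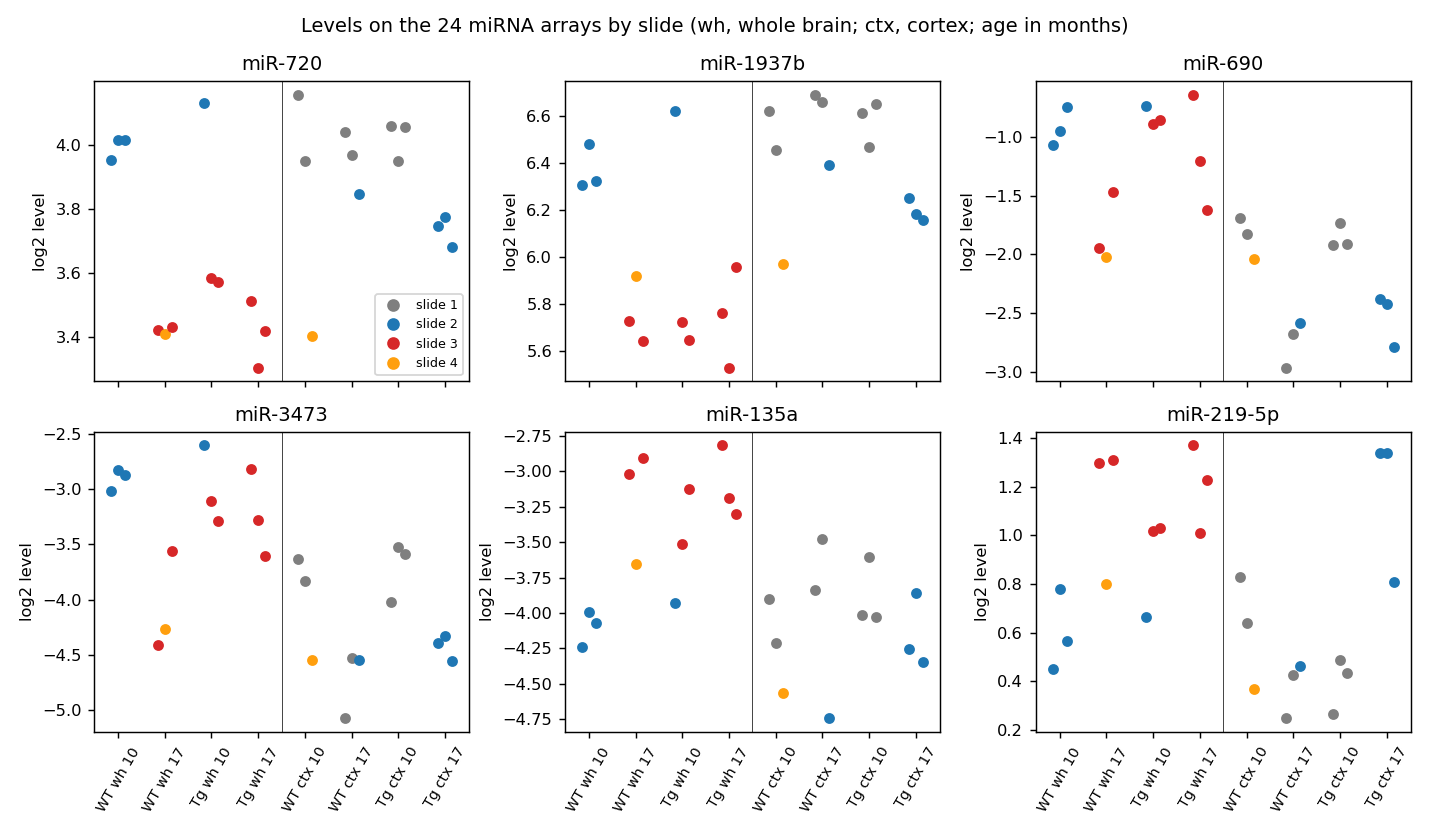
Log2 level (y axis) of 6 miRNAs on the 24 miRNA arrays, grouped by genotype, tissue and age in months (x axis), with 1 point per array coloured by slide. miR-720 and miR-1937b were low on slide 3 at both ages. miR-690 and miR-3473 were lower in WT cortex at 17 than at 10 months on slide 1, where the arrays of 17 months were also dimmer.

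The other named miRNAs with lower values at 17 months missed the adjusted threshold. miR-1937b had levels of 6.31, 6.48 and 6.32 at 10 months and 5.73, 5.92 and 5.64 at 17 months, a difference of -0.61 ± 0.09 (SE) with an adjusted p of 0.0553 (limma). miR-1939 had -0.86, -0.90 and -0.94 at 10 months and -1.62, -1.70 and -1.32 at 17 months. Both were separated between the ages by more than the range within either. miR-874 differed by -0.33 ± 0.06 (SE) and miR-3470a, which was at the floor on 2 arrays of 17 months, by -0.54 ± 0.08 (SE), each with an adjusted p of 0.0553 (limma). These 4 had the next smallest p after miR-720.

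Of the 12 named miRNAs with lower values, miR-3473 and miR-690 differed most. miR-3473 had levels of -3.02, -2.83 and -2.87 at 10 months and -4.41, -4.27 and -3.56 at 17 months, a difference of -1.17 ± 0.23 (SE) and a 2.26-fold lower level. miR-690 had -1.07, -0.95 and -0.74 at 10 months and -1.95, -2.02 and -1.47 at 17 months, a difference of -0.89 ± 0.17 (SE) and a 1.86-fold lower level. Their adjusted p was 0.0757 (limma) each. On both, replicate 3 of 17 months lay closest to the younger mice. The remaining 5, miR-1937c, miR-652*, miR-3096-3p, miR-1839-3p and miR-1949, had differences between -0.43 and -0.28.

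The 12 miRNAs with lower values were also set against the slides in Tg2576 whole brain of 10 months, where 1 array lay on slide 2 and 2 on slide 3. All 12 were lower on slide 3 than on slide 2 among these mice of one age. The share over all 266 miRNAs was not counted, and the slide 2 array was also much dimmer than the others. On slide 3 alone, where Tg2576 mice of both ages could be compared, 5 of the 12 were lower at 17 months. The slide difference in Tg2576 was -0.94 for miR-1937b and -0.79 for miR-1939 and miR-3470a. It was smaller for miR-690, at -0.14, and for miR-874, at -0.17. With slide as a term, 7 of the 12 had a lower value in WT at 17 months over 12 arrays and 6 over 24. Over 12 arrays, slides 2 and 3 were compared only through the Tg2576 mice of 10 months, with 1 array on slide 2. The slide 4 array had no weight there, so that this fit repeats the slide difference above and is no separate result. Over 12 arrays 4 of the 7 were close to 0, with miR-720 at -0.016, miR-1937c at -0.064, miR-1949 at -0.063 and miR-1839-3p at -0.055, and miR-874 was at -0.18 ± 0.11 (SE). miR-690 was at -0.65 ± 0.45 (SE) and miR-3473 at -0.49 ± 0.47 (SE), with errors close to the differences themselves. The other 5 (miR-3470a, miR-1937b, miR-1939, miR-652* and miR-3096-3p) had higher values at 17 months over 12 arrays, by 0.12 to 0.28.

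**Figure D3:**
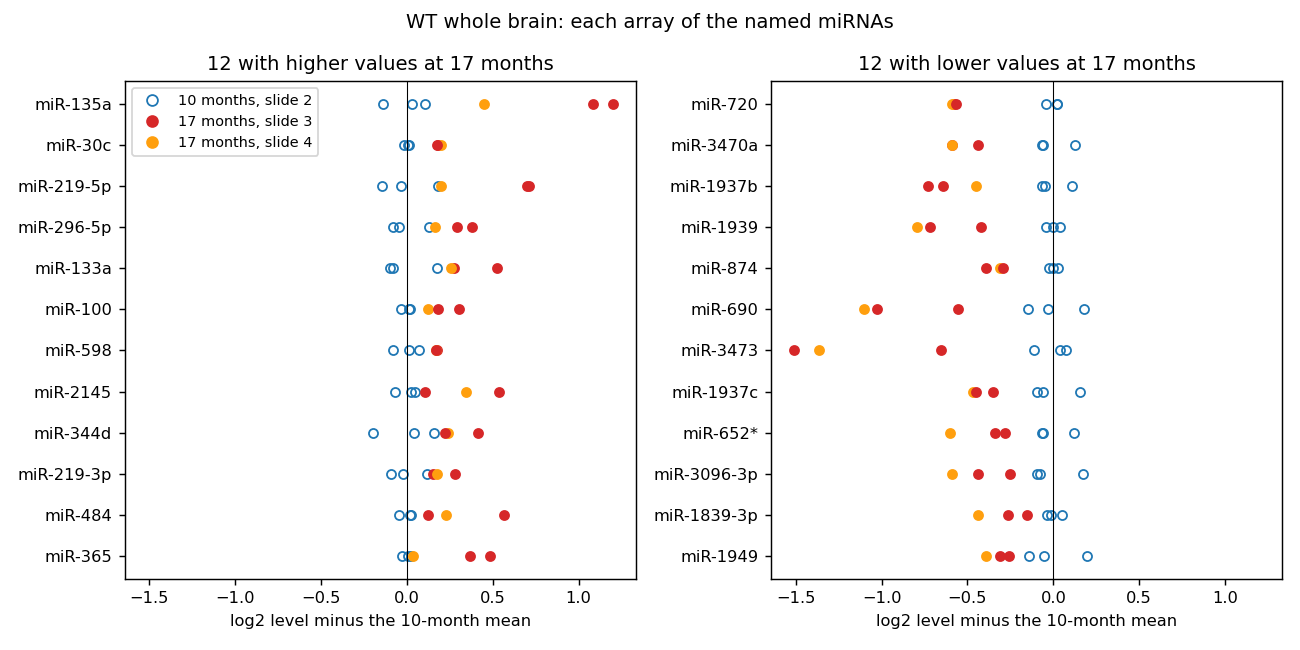
Log2 level of each array minus the mean of the 10-month arrays (x axis) for the 24 named miRNAs (y axis) in WT whole brain. Open points are 10-month arrays on slide 2, filled points 17-month arrays on slides 3 (red) and 4 (orange). For miR-135a, miR-219-5p and miR-365 the slide 4 array lay between the 10-month arrays and the other arrays of 17 months.

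Among the miRNAs with higher values at 17 months, miR-135a, which is known to target the serotonin transporter, differed most. Its levels were -4.24, -4.00 and -4.07 at 10 months and -3.02, -3.65 and -2.90 at 17 months. The difference was 0.91 ± 0.20 (SE, n = 3 per age), a 1.88-fold higher level, with an adjusted p of 0.127 (limma). Without replicate 2 of 17 months it was 1.14 ± 0.09 (SE) with an adjusted p of 0.0142 (limma). In Tg2576 whole brain of 10 months it was -3.93 on slide 2 and -3.51 and -3.12 on slide 3, and with slide as a term over 12 arrays the WT age difference was 0.53 ± 0.28 (SE).

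miR-219-5p, which promotes oligodendrocyte maturation, had levels of 0.45, 0.78 and 0.57 at 10 months and 1.30, 0.80 and 1.31 at 17 months. Replicates 1 and 3 of 17 months were well above the younger mice and replicate 2 was just above the highest of them. The difference was 0.54 ± 0.17 (SE) with an adjusted p of 0.301 (limma), or 0.70 ± 0.11 (SE) with an adjusted p of 0.0346 (limma) without replicate 2 of 17 months. miR-30c, a member of the miR-30 family, had a small but even difference. Its levels were 0.75, 0.77 and 0.78 at 10 months and 0.94, 0.96 and 0.94 at 17 months, a difference of 0.19 ± 0.05 (SE) with an adjusted p of 0.241 (limma). In Tg2576 whole brain of 10 months, miR-219-5p was 0.66 on slide 2 and 1.02 and 1.03 on slide 3. There miR-30c was 0.83 on slide 2 and 1.04 and 0.91 on slide 3. With slide as a term over 12 arrays, the WT age difference was 0.34 ± 0.20 (SE) for miR-219-5p and 0.03 ± 0.08 (SE) for miR-30c. The part of slide was not tested.

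The other named miRNAs with higher values had differences between 0.17 and 0.35. They were miR-296-5p, from the imprinted Gnas locus, the muscle miRNA miR-133a, miR-100, miR-598, miR-2145, miR-344d, miR-219-3p, miR-484 and miR-365. None had an adjusted p under 0.301 (limma). In 7 of the 12 miRNAs with higher values, replicate 2 of 17 months was the lowest of the older mice. Among Tg2576 whole brains of 10 months, 8 of the 12 were higher on slide 3 than on slide 2. On slide 3 alone 8 of the 12 were higher in Tg2576 mice of 17 months than of 10 months. The shares over all tested miRNAs were not counted. With slide as a term, 10 of the 12 had a higher value in each fit, the exceptions being miR-344d and miR-484 over 12 arrays and miR-344d and miR-30c over 24. Over 12 arrays, some of those counted as higher lay close to 0, with miR-365 at 0.0024, miR-30c at 0.031 ± 0.077 (SE) and miR-100 at 0.062 ± 0.094 (SE). That fit compared slides 2 and 3 only through the Tg2576 mice of 10 months, so that it is no separate result here either.

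The 19 calls made without replicate 2 of 17 months comprised 13 higher and 6 lower miRNAs, and 6 of the 13 higher ones (miR-136, miR-136*, miR-369-3p, miR-382*, miR-411 and miR-541) came from the Dlk1-Dio3 cluster, a large imprinted group of miRNAs on chromosome 12 that is expressed in brain. These were 6 of the 46 tested miRNAs of that cluster, beside 13 of 265 over all miRNAs tested. miR-411 had levels of -3.04, -3.06 and -3.05 at 10 months, -2.71 and -2.79 on the slide 3 arrays of 17 months and -3.03 on the slide 4 array. In 7 of the 13, replicate 2 of 17 months lay below the mean of the younger mice. The 2 arrays that the calls rested on shared slide 3 and had the brightest signal, and the part of slide and of signal in these calls was not tested.

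No list of cell-type or genomic groups held a miRNA that passed the adjusted threshold. Over all 266 miRNAs tested, 136 were higher and 130 lower at 17 months. Of the 16 tested miRNAs on the list of neuron-enriched miRNAs, 7 were higher and 9 lower with a median difference of -0.05. miR-128 had 3.96 to 4.15 at 10 months and 3.79 to 3.97 at 17 months, and miR-124 differed by -0.11. miR-129-5p differed by -0.24 and miR-129-1-3p by 0.17, so that miRNAs of the miR-129 family took opposite directions. Both had no overlap between the ages, and they were the only 2 of the 16 on the list without overlap. Over all miRNAs tested, 41 of 266 (15.4%) had no overlap, so that the list did not stand out. Neither miRNA passed the adjusted threshold in the main comparison, and miR-129-5p was among the calls made without replicate 2 of 17 months.

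The oligodendrocyte list held 3 tested miRNAs, and all 3 were higher, with a median difference of 0.20. miR-219-3p had -1.80, -1.58 and -1.72 at 10 months and -1.55, -1.53 and -1.42 at 17 months. miR-338-3p, the other oligodendrocyte miRNA, had 1.62, 2.01 and 1.83 at 10 months and 1.74, 1.99 and 1.82 at 17 months, a difference of 0.03 ± 0.12 (SE) with wholly overlapping ages. All 4 tested muscle-type miRNAs had higher values, with a median difference of 0.29 and no adjusted call. miR-1 had -3.45, -3.26 and -3.39 at 10 months and -3.13, -3.27 and -2.85 at 17 months, while miR-206 was above the floor only on replicate 3 of 17 months. The 3 tested vascular miRNAs were higher with a median difference of 0.14, with miR-126-3p at 0.10 ± 0.08 (SE).

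The large families differed by small amounts. Of the 9 tested let-7 miRNAs 6 were higher and 3 lower, with differences between -0.10 and 0.08. The miR-29 family had differences between -0.0023 and 0.12, with 4 of 5 higher. The miR-30 family had 3 of 8 higher, from -0.14 for miR-30a* to 0.28 for miR-30b. The miR-181 family had a median of -0.03 and the miR-15 and miR-16 family one of -0.01. The miR-17 to miR-92 clusters had 5 of 8 higher with a median of 0.01. miR-34a, a p53 target, had 0.86, 1.28 and 1.08 at 10 months and 1.07, 1.34 and 1.33 at 17 months, a difference of 0.17 ± 0.13 (SE), and the 3 tested miRNAs of the miR-34 and miR-449 family were all higher without a call.

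Among the immune and inflammation miRNAs, 4 of 6 were higher. miR-150, found in mature lymphocytes, differed by 0.27 ± 0.12 (SE) and miR-146a, a feedback inhibitor of innate immune signalling, by 0.17 ± 0.18 (SE). miR-21 had 1.01, 1.16 and 1.13 at 10 months and 1.08, 1.23 and 1.09 at 17 months. Of the choroid plexus miRNAs, miR-204 was at 0.08 and miR-211* at -0.27. The Dlk1-Dio3 cluster had 30 of 46 higher with a median of 0.06, and the miRNAs of the Sfmbt2 cluster 1 of 5 with a median of -0.11. No Hox cluster miRNA was detected on 2 arrays of an age, of the 11 on the array.

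The miRNAs that varied most did so between mice of one age. The pooled SD within an age had a median of 0.11 over the 266 miRNAs, but exceeded 1 for 8 of them, which were miR-200a, miR-429, miR-200b, miR-183, miR-96, miR-141, miR-200c and miR-375. miR-200a had levels of 1.27, -5.29 and -2.13 at 10 months and -1.21, -5.67 and -2.73 at 17 months. miR-183 had 0.37, -5.67 and -3.11 at 10 months and -2.40, -5.67 and -3.76 at 17 months. In both families replicate 1 of each age was the highest of its age and replicate 2 the lowest, at or near the floor. miR-182, the third member of the miR-183 cluster, was not detected on 2 arrays of either age.

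All 5 tested miRNAs of the miR-200 family and both of the miR-183 family had a lower mean at 17 months, with median differences of -1.20 and -1.21, but the ages overlapped throughout. The difference of miR-200b was -1.20 ± 1.64 (SE) with an adjusted p of 0.796 (limma), and that of miR-200c -1.50 ± 1.12 (SE) with 0.651 (limma). Without replicate 1 of 10 months, the difference turned to 0.51 (miR-200a), 0.32 (miR-200b), 0.30 (miR-429) and 0.16 (miR-141) in the miR-200 family and to 0.44 (miR-183) and 0.19 (miR-96) in the other, while miR-200c stayed below 0. Without replicate 2 of 17 months that of miR-200a was 0.08. At this spread and with 3 arrays per age, no age difference was detectable for these miRNAs.

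The mRNA arrays of WT whole brain, made from total RNA of the same groups and carrying the same replicate numbers, also differed within an age in markers of the olfactory bulb. The labels do not say whether miRNA and mRNA arrays of one number came from one mouse. Omp, the marker of mature olfactory sensory neurons, had 0.58, -3.04 and -2.08 at 10 months and -1.33, -2.96 and -2.13 at 17 months (log2 signal relative to the 75th percentile of the array). The order of the mRNA arrays by Omp differed from that of the miRNA arrays by miR-200a only in the 2 lowest, which were replicate 2 of each age in both. Doc2g, a gene of the mitral and tufted cells of the bulb, had 1.77, -0.50 and 0.15 at 10 months and -0.00, -0.89 and -0.43 at 17 months. All 5 genes of the list were well above background on all 6 arrays. Their summed level was 2.32 to 3.68 at 10 months and 2.51 to 3.13 at 17 months, highest in replicate 1 at each age and lowest in replicate 2. The part of olfactory tissue in the miR-200 and miR-183 levels was not tested.

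miR-451 had levels of -1.34, -0.35 and 1.22 at 10 months and -1.59, -1.93 and -2.04 at 17 months, the largest difference of the 266 miRNAs at -1.70 ± 0.62 (SE). The ages did not overlap, but replicate 1 of 10 months lay only 0.25 above the highest of the older mice, and the adjusted p was 0.377 (limma). Without replicate 3 of 10 months the difference was -1.01. miR-144, made from the same precursor transcript, was at -5.16 and -3.66 on replicates 2 and 3 of 10 months and at the floor on the other 4 arrays. On the mRNA arrays Alas2, the first enzyme of heme synthesis in red cells, had -1.87, -0.69 and 0.64 at 10 months and -2.25, -2.10 and -2.74 at 17 months. Hba-a1, a globin gene, had 3.74, 5.01 and 6.14 at 10 months and 3.80, 3.94 and 3.52 at 17 months. Both genes and both miRNAs were highest in replicate 3 of 10 months, then in replicate 2. Cd3e, a T cell gene and the other blood gene tested, was not, with 0.63, 0.43 and 0.36 at 10 months and 0.43, 0.50 and 0.85 at 17 months. Of the 6 blood genes listed, 4 had a probe and 3 were tested, their summed level was 3.93 to 6.20 at 10 months and 3.75 to 4.08 at 17 months, and Cd8a was not well above background on any array. Neither Alas2 (adjusted p = 0.0819, limma) nor Hba-a1 (adjusted p = 0.161, limma) passed the threshold. The part of blood left in the tissue was not tested.

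miR-375 was at -2.73 on replicate 3 of 10 months, at -5.39 on replicate 2 and at or near the floor on the other 4 arrays. Without replicate 3 of 10 months its difference went from -1.04 to -0.10. The pituitary hormone gene Prl had -0.68, 4.55 and 7.38 at 10 months and 1.83, 3.62 and 3.72 at 17 months, and Cga, the subunit shared by the glycoprotein hormones, had -4.76, -1.50 and 2.34 at 10 months and -3.53, -0.53 and -0.89 at 17 months. Both genes were highest in replicate 3 of 10 months, as miR-375 was. Lhb, a subunit of luteinizing hormone, was not, with -3.10, -3.41 and -3.19 at 10 months and -3.49, -2.91 and -2.95 at 17 months, and the summed level of all 6 was 1.74 to 8.04 at 10 months and 3.69 to 4.61 at 17 months. miR-7b, another neuroendocrine miRNA, had -0.90, -1.13 and -0.37 at 10 months and -0.70, -1.21 and -0.78 at 17 months. The part of pituitary tissue in these values was not tested.

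**Figure D4:**
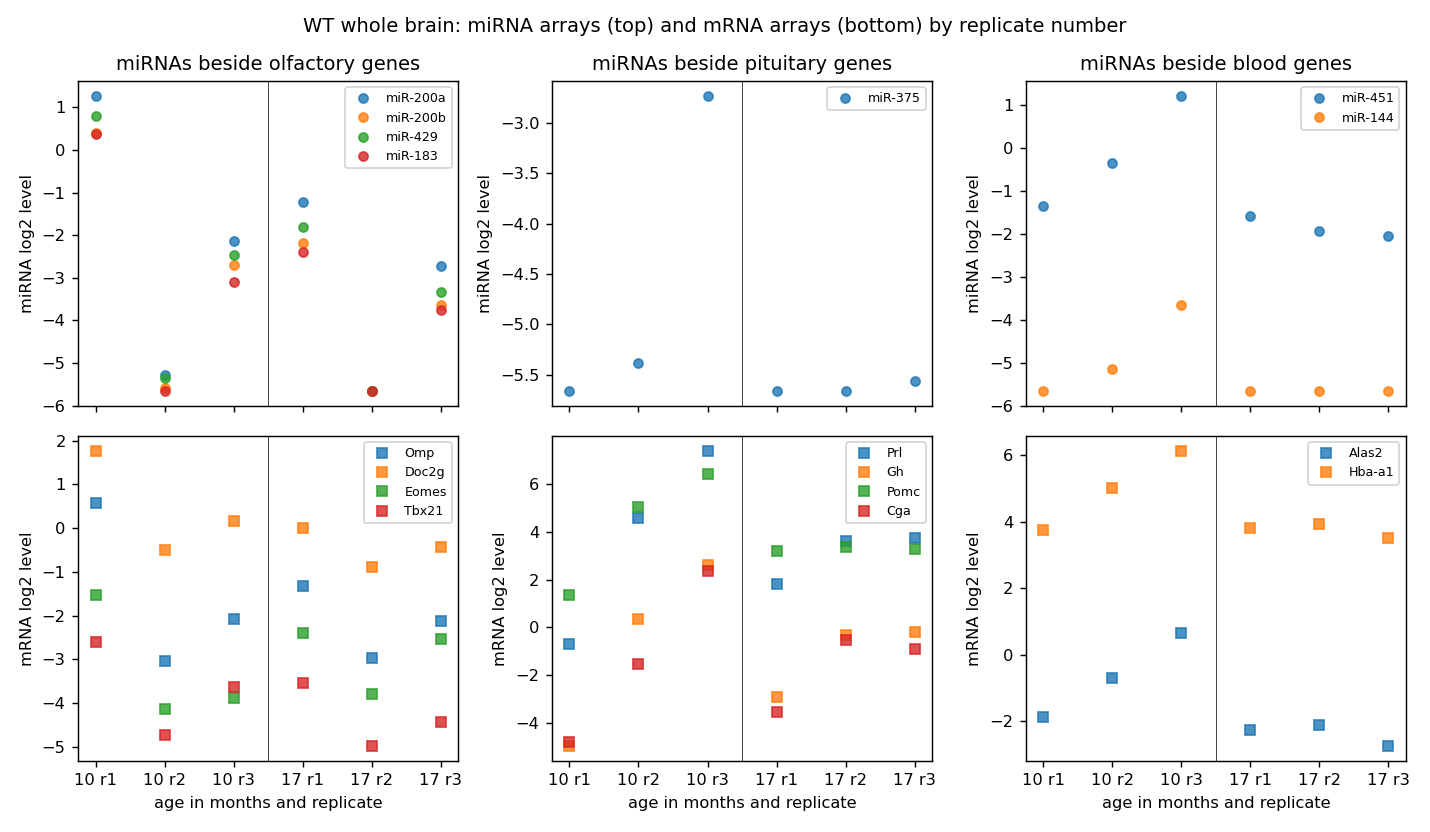
Log2 levels of miRNAs (top) and of marker mRNAs (bottom) on the arrays of WT whole brain with the same replicate number (x axis, age in months and replicate, 1 point per array). miR-200a and Omp were highest in replicate 1 of 10 months, and miR-375, Prl, miR-451 and Alas2 in replicate 3 of 10 months.

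The mRNA arrays were used to look at cells and host genes that match the miRNAs. Between the same groups, 27.8% of 37639 mRNA probes passed the adjusted threshold, and the 3 arrays of each age lay on a slide of their own, so that age and slide cannot be told apart there either. The 10479 probes that passed went to 6264, 5919 and 6179 without replicates 1, 2 and 3 of 17 months. By direction, 4774 of the 10479 were higher and 5705 lower at 17 months. Of the 55 marker genes tested, 9 passed, beside 27.8% over all probes, and all 9 were higher at 17 months. They comprised the oligodendrocyte genes Mag and Mobp (2 of 6), the endothelial genes Cldn5, Flt1 and Cdh5 (3 of 4), the neuronal genes Rbfox3 and Gad1 (2 of 6), the astrocyte gene Gfap (1 of 5) and the cerebellar gene Zic1 (1 of 5). Mobp, a myelin protein gene, had 3.51, 3.71 and 3.44 at 10 months and 4.04, 4.16 and 3.98 at 17 months, and Mag, another, differed by 0.81 ± 0.09 (SE, adjusted p = 0.00508, limma). Mbp, the gene of myelin basic protein, differed by 0.09 ± 0.07 (SE) and Mog by -0.11 ± 0.06 (SE). Flt1, a receptor of vascular endothelial growth factor, differed by 0.89 ± 0.07 (SE, adjusted p = 0.00394, limma), beside 0.10 for the endothelial miR-126-3p. Gfap differed by 0.66 ± 0.08 (SE, adjusted p = 0.0058, limma). The cerebellar genes were all higher, with Pcp2 at 0.78, 2.84 and 1.59 at 10 months and 2.04, 3.31 and 4.69 at 17 months.

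Of 11 tested genes that hold the hairpin of a named miRNA on the same strand, 4 passed, beside 27.8% of all mRNA probes tested. Fgf12, a modulator of sodium channels that holds miR-690, had 4.19, 4.14 and 4.10 at 10 months and 3.90, 3.85 and 3.78 at 17 months. Its difference was -0.30 ± 0.06 (SE, adjusted p = 0.0212, limma) beside -0.89 for the miRNA. Tmem164 differed by 0.19 ± 0.06 (SE) and its miR-652* by -0.41. Nfyc, a subunit of a CCAAT-binding factor, differed by -0.02 ± 0.07 (SE), beside 0.19 for miR-30c and -0.11 for miR-30e*. Aatk, a kinase gene that holds miR-338, differed by 0.53 ± 0.10 (SE, adjusted p = 0.017, limma) beside 0.03 ± 0.12 (SE) for miR-338-3p, and Trpm3, a cation channel that holds miR-204, by -0.50 ± 0.10 (SE, adjusted p = 0.0165, limma) beside 0.08 for miR-204. R3hdm1, with 1 of the 2 copies of miR-128, differed by -0.25 ± 0.06 (SE, adjusted p = 0.0358, limma) and Arpp21, with the other copy, by 0.08 ± 0.12 (SE), beside -0.14 for miR-128. Without replicate 3 of 17 months 1 host gene passed, and without replicate 1 or 2 of 10 months or 1 or 2 of 17 months 2 did.

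The same contrast was made in Tg2576 whole brain, which shared no array with the WT comparison. There 0 of 269 miRNAs passed the adjusted threshold and 18 (6.69%) had an unadjusted p under 0.05, 15 of them higher (5.58%). Without replicate 1 of 10 months, the only Tg2576 whole brain array on slide 2, 4 passed, none of them among the 24 named above. Of the 264 miRNAs tested in both, 170 had a difference of the same sign in WT and Tg2576. All 12 named miRNAs with higher values in WT were higher in Tg2576, and 9 of the 12 with lower values were lower. The differences were smaller, at 0.42 for miR-135a, 0.30 for miR-219-5p, -0.35 for miR-720, -0.33 for miR-690 and -0.23 for miR-3473. miR-451 differed by -1.21 in Tg2576. The test of the difference between the genotypes called 0 of 271 miRNAs (9, or 3.32%, at an unadjusted p under 0.05, smallest adjusted p = 0.963, limma), and for miR-720 the age change in Tg2576 minus that in WT was 0.22 ± 0.18 (SE). Slide and age overlapped in part in Tg2576 too, since 1 array of 10 months lay on slide 2 and the other 5 on slide 3.

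In WT cortex 0 of 266 miRNAs passed (18, or 6.77%, at an unadjusted p under 0.05, smallest adjusted p = 0.0526, limma). Of the 258 miRNAs tested in both tissues, 133 had the same sign. Of the named miRNAs, 4 of the 12 with higher values and 5 of the 12 with lower values in whole brain had the same sign in cortex. miR-690 was one of them. It had -1.69, -1.83 and -2.04 in cortex at 10 months and -2.97, -2.68 and -2.58 at 17 months, a difference of -0.89 (adjusted p = 0.0526, limma). On slide 1 alone, with 2 arrays of each age, both arrays of 17 months were below both of 10 months. These arrays of 17 months were also dimmer, with a 75th percentile of 391 and 351 beside 681 and 781 at 10 months. The part of brightness was not tested. miR-3473 differed by -0.71 in cortex. miR-451 differed by -1.70 in cortex, where it had -1.40, -0.39 and 0.85 at 10 months, in the same order by replicate number as in whole brain. In contrast, miR-720 differed by 0.12, miR-1937b by 0.23, miR-652* by 0.50 and miR-219-5p by -0.23 in cortex. Slide differed between the ages in cortex too, since replicate 3 lay on slide 4 at 10 months and on slide 2 at 17 months. miR-720 had 4.16, 3.95 and 3.40 in cortex at 10 months, the last on slide 4, and 4.04, 3.97 and 3.85 at 17 months. The part of slide in these differences was not tested.

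The test of the difference between the tissues called 2 of 274 miRNAs (0.73%), miR-3085-3p and miR-3092. Both were near the floor in whole brain, where their age differences were -0.02 ± 0.07 and -0.04 ± 0.08 (SE). No miRNA passed without replicates 1, 2 or 3 of 10 months or 1 or 3 of 17 months of whole brain, nor without replicates 2 or 3 of 10 months or 2 of 17 months of cortex. None passed with the replicate number as a block (smallest adjusted p = 0.112, limma). The count was 1 without replicate 2 of 17 months of whole brain and 6 without replicate 1 of 10 months of cortex. For miR-720 the age change in cortex minus that in whole brain was 0.69 ± 0.22 (SE, adjusted p = 0.301, limma), and for miR-219-5p -0.77 ± 0.23 (SE, adjusted p = 0.301, limma). None of the 24 named miRNAs passed this test.

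**Figure D5:**
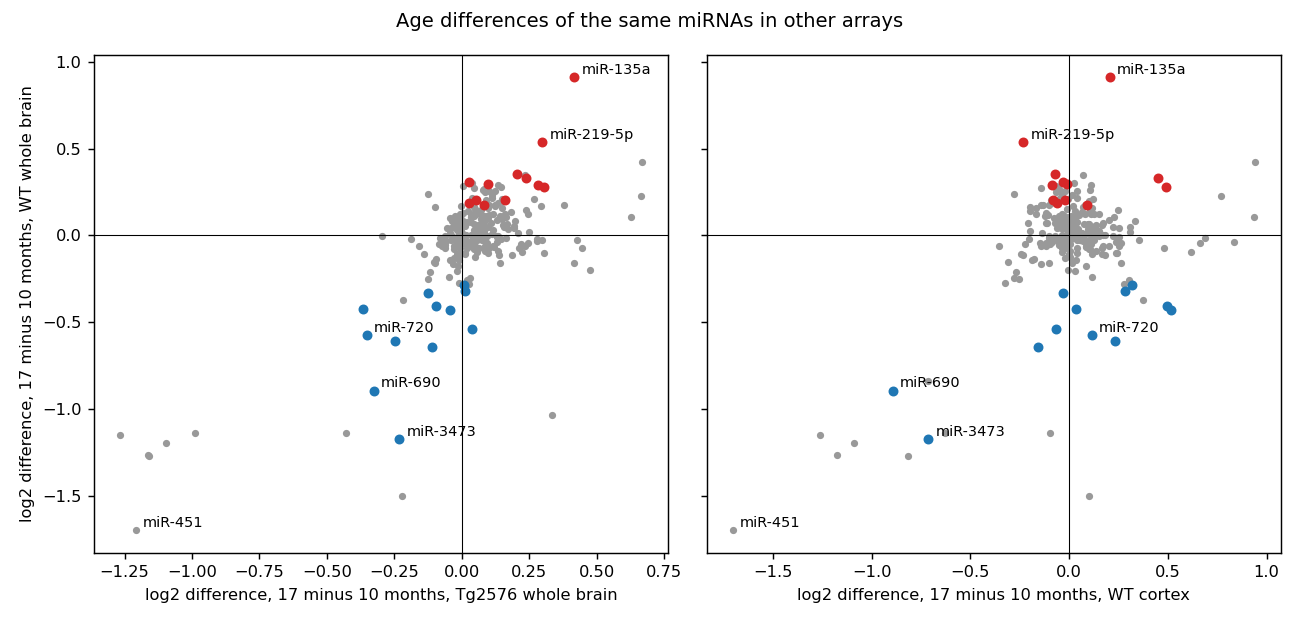
Log2 difference between 17 and 10 months in WT whole brain (y axis) against the same difference in Tg2576 whole brain (left x axis) and in WT cortex (right x axis), 1 point per miRNA tested in both. Red and blue points are the 12 named miRNAs with higher and the 12 with lower values in WT whole brain. All red points lay right of 0 for Tg2576, and miR-690 and miR-451 were lower at 17 months in all 3 comparisons.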

How the data were processed

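Total RNA was hybridised to 1-colour Agilent miRNA arrays and, from the same groups, to mRNA arrays. The deposited scanner files hold spot intensity from Agilent Feature Extraction 10.7.3.1 (per the submitters' processing notes), background-corrected by that program and not normalized. The authors' value tables hold log2 values (for miRNAs, the log2 total signal of a miRNA minus a constant per array, within 0.01) and were used as an alternative. Outlier spots were left out, spots averaged per probe and probes per miRNA, and each array divided by its 75th percentile, taken over the 402 probes that were above background on each of the 24 miRNA arrays. Values were floored at the median over arrays of the lowest signal well above background and taken as log2. A miRNA was detected on an array where over 50% of the spots of a probe were above background. Those detected on 2 or more arrays of an age and above the floor on 1 or more were fitted in limma 3.58.1 (R 4.3.3) with Benjamini-Hochberg adjustment and a threshold of 0.05. mRNA probes above background on 2 or more arrays of either age were fitted likewise after subtraction of the 75th percentile of the array, with genes named through RefSeq transcripts (26056 of 55681 probes) and represented by their brightest probe. SE is limma's moderated error. The number of arrays limits the precision, and p-values measure the spread between the samples of a group.

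Named were, in each direction, up to 12 miRNAs past the adjusted threshold with no overlap of the ages, filled up in order of unadjusted p (under 0.05, no overlap), up to 4 per list with the smallest p, 8 miRNAs of 2 families (miR-200, miR-183), and host genes. Members and lists were chosen with earlier results of these data known. Fits were tested on simulated data. Alternatives covered scaling, background, floor, filters, slide, replicate block, the methods' t-test and single arrays. A slide term over 12 or 24 arrays, another detection call and a stricter floor filter were added after seeing the data. The other mRNA arrays were not used here.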

Additional observations from a re-analysis of the deposited data

Results flagged for a closer look

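The age change differed between cortex and whole brain of WT mice in the interaction test for 2 miRNAs. The change in cortex minus that in whole brain was 0.71 ± 0.12 (SE, n = 3 per group) on the log2 scale for miR-3085-3p and 0.88 ± 0.16 (SE) for miR-3092, each with an adjusted p of 0.0322 (limma). In whole brain both lay between -5.67, the floor, and -5.44 on all 6 arrays, and the age difference in cortex was 0.69 and 0.84.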

How the results depend on the processing

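The count of miRNAs past the adjusted threshold in WT whole brain, 1 as reported, was 0 with the percentile over all probes, with quantile normalization, with all 12 whole brain arrays in the fit, with slide as a random block (consensus correlation 0.404) and with slide as a term over 12 or 24 arrays. It was 2 after normexp correction, with the total gene signal and by the methods' t-test with Benjamini-Hochberg adjustment, 5 with the median in place of the percentile, 7 among miRNAs detected on all 6 arrays and 8 among those above the floor on all 6 (a setting added after seeing the data, like both slide terms). Leaving out 1 array gave 0 to 19. It was again 1 with the other percentile, both floors, no filter, the other detection call and the authors' table, where the call was miR-2137, and by the methods' t-test without adjustment at their fold, where it was miR-3473.

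The labels do not say that replicate numbers pair the arrays, and not every number did so in the data. Deviations from the age means correlated by 0.86, 0.85 and -0.02 for replicates 1, 2 and 3 between 10 and 17 months, where the third was below the best correlation with another number (0.13). The widely varying miR-200 and miR-183 families, highest in replicate 1 and lowest in replicate 2 of each age, entered these correlations. Their part in the correlations was not tested. Between whole brain and cortex of WT the deviations correlated by 0.39, -0.65 and 0.43 at 10 months and by 0.90, 0.60 and -0.16 at 17 months, while miR-451 had the same order by number in both tissues at 10 months. With the replicate block 4 miRNAs passed in WT whole brain, 0 in the comparison of tissues (2 without it), 1 host gene and 4760 mRNA probes, against 5244 of 55655 without the filter on dim probes.

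With slide as a term over 12 and over 24 arrays, the WT difference turned sign for miR-344d (-0.32 and -0.14), miR-3470a (0.28 and 0.025), miR-1937b (0.25 and 0.11), miR-1939 (0.22 and 0.11), miR-652* (0.22 and 0.13) and miR-3096-3p (0.12 and 0.028). It also did for miR-484 over 12 (-0.024) and for miR-30c (-0.075) and miR-1949 (0.059) over 24. After normexp correction miR-344d (-0.048) and miR-484 (-0.042) turned. Leaving out 1 array gave miR-200a -2.77 to 0.51, miR-200b -2.68 to 0.32, miR-141 -2.24 to 0.16, miR-429 -2.78 to 0.30, miR-183 -2.57 to 0.44 and miR-96 -2.51 to 0.19.

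In WT cortex the count, 0 as reported, was 3 with the percentile over all probes, 4 with the median and 12 with the authors' table. In Tg2576 whole brain leaving out 1 array gave 0 to 4. In the comparison of tissues, 2 as reported, it was 5 with the percentile over all probes and 9 with the authors' table, and 0 to 6 on leaving out 1 array. Of the 4 host genes 2 passed without the filter on dim probes and 1 to 3 on leaving out 1 array. The cause of these differences was not tested. Signal over background limited the miRNAs at the floor, of which 67 could not be tested.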

Other observations

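miR-2137, singled out after its values were seen, was at the floor on all 6 arrays in the values used above and was therefore not tested. By its deposited total signal, scaled in the same way, it lay at the lowest value of -7.86 on all 3 arrays of 10 months and at -6.09, -6.64 and -6.23 on those of 17 months. A probe for it was detected on 0 arrays of 10 months and on 2 of 17 months. On the authors' log2 table, where undetected miRNAs take the lowest value of the array, it was the only call. Its values on all 3 arrays of 10 months were these lowest values there. The size of that difference and its call therefore depend on the value given to undetected miRNAs, and they are no test of age.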
